A study of Bos taurus with 6 samples.

Results

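CYB5R2 encodes cytochrome b5 reductase 2, and it is described here together with its relatives CYB5R1, CYB5R3, CYB5R4 and CYB5RL and with the electron carriers CYB5A and CYB5B. Probes were taken by name: a probe belonged to the family if its gene name, or the symbol in brackets in its description, was one of these genes, or if its description held the words cytochrome b5 reductase. This gave 19 probes for 7 genes among the 43653 probes of the array that are not controls. In genes, that is 7 of 15244 with a symbol on the array. There were 2 probes for CYB5R2, 2 for CYB5R1, 4 for CYB5R3, 3 for CYB5R4, 1 for CYB5RL, 4 for CYB5A and 3 for CYB5B. The family was chosen by the difference that CYB5R2 showed between the groups in these data, so the CYB5R2 values are a description with no test. The other genes were taken by name and not by value.

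Whole blood of the jugular vein was measured in 3 cows that carry the fat-1 transgene and in 3 wild type cows, with 1 array of the Agilent bovine 1-colour type for each animal. The study compared gene expression between the groups with lipid metabolism in view. The fat-1 gene comes from the nematode Caenorhabditis elegans and encodes a desaturase that makes omega-3 from omega-6 fatty acids. Replicate 1 of the fat-1 animals was 3.5 years old, and the other fat-1 animals and all wild type animals were 3 years old. The promoter of the transgene, the number of founder lines and any relation between the animals are not given in the sources used here, so p-values measure the spread between these animals.

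Cytochrome b5 reductases are flavoproteins that take electrons from NADH and pass them to cytochrome b5, a small haem protein held in membranes. Cytochrome b5 hands the electrons on to enzymes that need them, among them the fatty acid desaturases, the fatty acid elongation system and enzymes of cholesterol synthesis. In red cells, CYB5R3 and cytochrome b5 keep haemoglobin in the reduced state that binds oxygen, and inherited loss of CYB5R3 in humans causes methaemoglobinaemia.

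The CYB5R2 result rests on a pair of 60-base probes from separate places on the same transcript, and these are printed with 1 CYB5A probe that is described further on. Sequences are as in the scanner files, 5′ to 3′, with positions on the Btau_3.1 build named in the file headers. Capitals mark the longest run of bases that also occurs in the probe of another gene on the array.
CYB5R2 probe 1: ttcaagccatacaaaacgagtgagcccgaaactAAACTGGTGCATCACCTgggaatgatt
CYB5R2 probe 2: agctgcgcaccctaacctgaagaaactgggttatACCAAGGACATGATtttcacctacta
CYB5A probe 1: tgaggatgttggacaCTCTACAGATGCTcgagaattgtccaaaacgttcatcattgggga
CYB5R2 probe 1 lies at chr15:44260064-44260123 and starts at base 565 of transcript ENSBTAT00000021485, per the files. CYB5R2 probe 2 lies at chr15:44263029-44263088 and starts at base 936 of the same transcript. CYB5A probe 1 lies at chr24:4080135-4080194 and starts at base 280 of NM_174033. The CYB5R2 probes share no run with each other. Their longest runs shared with other genes' probes were 17 bases, with an unnamed transcript whose probe differed by 0.07 log2 units between the groups, and 14 bases, with IL4R, whose probe differed by -0.17. Each printed probe can be read through in at least 1 frame without a stop codon, as can 15 of the 19 family probes and 85.6% of all probes on the array.

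CYB5R2 was brighter in fat-1 blood than in wild type blood on both probes, with no overlap between the animals. Intensities here are the processed spot intensities of the scanner files, before any scaling between arrays. CYB5R2 probe 2 read 802, 568 and 1098 in fat-1 replicates 1, 2 and 3, against 121, 101 and 74.1 in wild type replicates 1, 2 and 3. CYB5R2 probe 1 read 154, 110 and 205 in the fat-1 animals, against 35.0, 27.1 and 16.0 in the wild type animals. Probe 2 was well above background on all 6 arrays, and probe 1 was well above background in all 3 fat-1 animals and in 2 of 3 wild type animals, with wild type replicate 3 as the exception.

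Levels are given from here on as log2 of the intensity relative to the 75th percentile of the same array, and a difference is fat-1 minus wild type on that scale. CYB5R2 probe 2 had a level of -0.06 ± 0.29 in the fat-1 cows and -2.93 ± 0.56 in the wild type cows (SD, n = 3 each). The difference was 2.87 ± 0.32 (standard error of the limma fit), with a 95% interval of 2.15 to 3.59, which is a 7.30-fold higher intensity. The CYB5R2 intervals take no account of the choice of CYB5R2 by its difference, and they are no test. The gap between the lowest fat-1 animal and the highest wild type animal was 2.20. CYB5R2 probe 1 had a level of -2.45 ± 0.28 in the fat-1 cows and -4.89 ± 0.78 in the wild type cows (SD, n = 3 each). Its difference was 2.44 ± 0.38, with an interval of 1.58 to 3.31. It includes the reading of wild type replicate 3, which was not well above background, and it was 2.00 without that animal, so no fold is given for probe 1. Ordered from the most positive difference down, probe 2 stood at rank 25 and probe 1 at rank 47 of the 26822 probes tested.

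**Figure D1:**
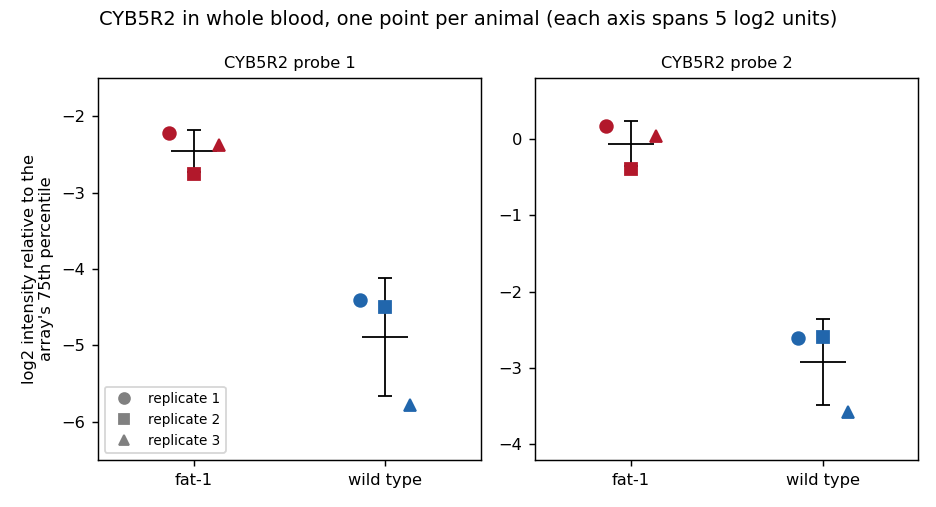
CYB5R2 level (log2 intensity relative to the array's 75th percentile) in each fat-1 and wild type animal, in 1 panel per probe. Points are animals with the replicate number as shape, horizontal lines are group means and bars are SD. All 3 fat-1 animals sit above all 3 wild type animals on each probe, and wild type replicate 3 is the lowest animal on each.

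The levels of the CYB5R2 probes had a Pearson r of 0.99 over the 6 animals, and 0.99 after each group's mean was removed. Within the fat-1 group, replicate 2 was lowest on each probe, at -2.76 on probe 1 and -0.39 on probe 2. Within the wild type group, replicate 3 was lowest, at -5.79 on probe 1 and -3.58 on probe 2. The spread within wild type blood was wider than within fat-1 blood on each probe.

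The size of the CYB5R2 difference depended on how the background and dim signal were treated. Normexp background correction models the local background instead of using the scanner's processed signal, and here it also added an offset of 50 to every intensity. An added offset shrinks log2 differences most for dim probes, and its part was not tested apart from that of the background model. With normexp the difference was 0.89 for probe 1 and 1.99 for probe 2. Under the other settings, leaving out 1 animal at a time included, it lay between 2.00 and 2.69 for probe 1 and between 2.54 and 3.03 for probe 2.

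All fat-1 arrays shared 1 slide and scan, and all wild type arrays shared another, and the effects of slide and group cannot be told apart for any difference given here. The 75th percentile of intensity was 714 to 1065 on the fat-1 arrays and 610 to 886 on the wild type arrays. The share of probes well above background was 60.4% to 63.4% in the fat-1 cows and 58.4% to 61.2% in the wild type cows, and no spot was saturated. Arrays correlated with each other at r of 0.955 to 0.984 over probes.

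Of the 19 family probes, 17 were bright enough to be tested, which asked for a signal well above background in 3 or more of the 6 animals, and 26822 probes in all were. Over those, limma with Benjamini-Hochberg adjustment called 46 probes at an adjusted p under 0.05, which is 0.172%. CYB5R2 probe 2 was the 1 family probe among them, a count that the choice of CYB5R2 fixes. It was not called with quantile scaling, with the authors' value table, with no filter on dim probes, or when any 1 of the fat-1 animals was left out. With CYB5R2 left out, 0 of 15 family probes were called, with adjusted p from 0.240 to 0.995 in limma, and 2 of 15 had an unadjusted p under 0.05, against 12.8% of all probes tested. The median difference of these 15 probes was 0.07, beside -0.06 over all probes tested. The groups did not overlap on 4 of the 15, against 19.6% of all probes tested. On all 4 the fat-1 animals were above, against 6.89% of all probes tested, and on 0 of the 15 they were below, against 12.7%. The 4 were 3 CYB5A probes, with r of 0.90 to 0.96 between them over the animals, and CYB5R4 probe 3, so they are not separate genes. The gap between the groups was 0.03 on CYB5A probe 3 and 0.01 on CYB5R4 probe 3.

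**Figure D2:**
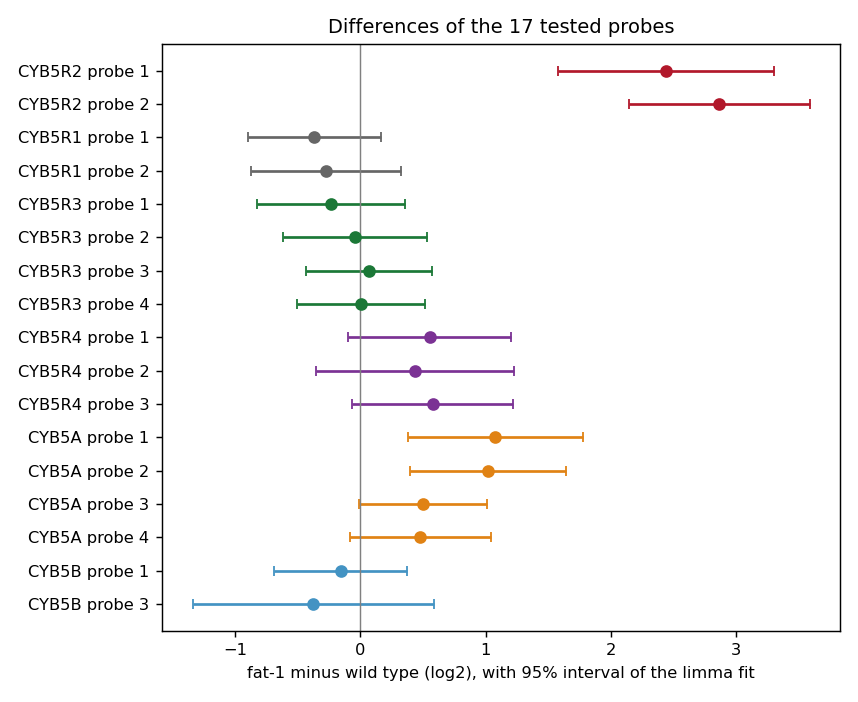
Difference between fat-1 and wild type blood (log2, horizontal axis) for each of the 17 tested family probes, with the 95% interval of the limma fit as bars and 1 colour per gene. The CYB5R2 probes stand at 2.44 and 2.87, the CYB5A probes between 0.48 and 1.08, and the CYB5R1, CYB5R3 and CYB5B probes between -0.38 and 0.07. The CYB5R2 intervals take no account of the choice of CYB5R2 by its difference.

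Among the other reductases, CYB5R1 and CYB5R3 gave no called difference. CYB5R1 encodes a membrane-bound reductase of the family. CYB5R1 probe 1, whose 60 bases span 697 bases of chromosome 16 in the files and so cross an exon junction, had a level of -2.57 ± 0.15 in the fat-1 cows and -2.20 ± 0.31 in the wild type cows (SD, n = 3 each). Its difference was -0.37 ± 0.23 (limma adjusted p = 0.476). CYB5R1 probe 2 differed by -0.28 ± 0.26 (limma adjusted p = 0.608), and the groups overlapped on each CYB5R1 probe.

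CYB5R3, the reductase of red cell methaemoglobin, was bright in every animal. CYB5R3 probe 4 read 10578, 11633 and 17472 in fat-1 blood, against 10172, 12000 and 12376 in wild type blood. On the scaled log2 levels the 4 CYB5R3 probes differed by -0.24, -0.05, 0.07 and 0.00, with 95% intervals that together ran from -0.83 to 0.57 and limma adjusted p from 0.650 to 0.995. These intervals hold no difference of the size measured for CYB5R2. CYB5R3 probes 3 and 4 overlap by 37 bases and are not separate measurements, and probes 2, 3 and 4 followed each other over the animals at r of 0.82 to 0.95, while probe 1 followed them at 0.18 to 0.29. Wild type replicate 2 was the highest animal on CYB5R3 probes 2, 3 and 4.

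CYB5R4 is a fusion of a cytochrome b5 domain and a reductase domain in 1 protein, and it is known as an endoplasmic reticulum oxidoreductase. CYB5R4 probe 1, which starts at base 748 of the transcript and is listed over 5644 bases of chromosome 9, had levels of -1.57, -1.28 and -2.28 in fat-1 replicates 1, 2 and 3, against -2.30, -2.41 and -2.08 in the wild type replicates. CYB5R4 probe 3, which starts at base 2084, had levels of -1.03, -1.02 and -0.84 in the fat-1 animals and -1.51, -2.06 and -1.04 in the wild type animals. On probe 3 the groups did not overlap, but the gap between them was 0.01, and on probe 1 fat-1 replicate 3 lay among the wild type animals.
The differences were 0.55 ± 0.29 for probe 1, 0.44 ± 0.35 for probe 2 and 0.58 ± 0.28 for probe 3, with limma adjusted p of 0.422, 0.550 and 0.412. Without wild type replicate 2 the difference of probe 2 was 0.05 and that of probe 3 was 0.31, and probe 1 gave 0.33 when fat-1 replicate 2 was left out and 0.84 when fat-1 replicate 3 was. The CYB5R4 probes did not follow the animals in the same way: probes 2 and 3 had r of 0.93 with each other, while probe 1 had r of 0.28 with probe 2. CYB5RL, a reductase-like gene, stayed near background on all 6 arrays, and its probe read 20.6 to 24.7 in the fat-1 cows and 16.1 to 22.4 in the wild type cows.

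Of the electron carriers, CYB5A, the cytochrome b5 of the endoplasmic reticulum and, in a soluble form, of red cells, had higher values in fat-1 blood on 4 of 4 probes, and none of these passed the threshold. CYB5A probe 1, whose sequence is printed above, had levels of -1.90, -2.37 and -2.67 in fat-1 replicates 1, 2 and 3, against -3.62, -3.70 and -2.85 in the wild type replicates. CYB5A probe 2 had levels of -1.42, -1.52 and -1.61 in the fat-1 animals and -2.90, -2.72 and -1.99 in the wild type animals. All fat-1 animals lay above all wild type animals on both, and wild type replicate 3 stood closest to the fat-1 group, at a gap of 0.18 on probe 1 and 0.37 on probe 2. The differences were 1.08 ± 0.31 for probe 1 (95% interval 0.38 to 1.78, limma adjusted p = 0.260) and 1.02 ± 0.27 for probe 2 (0.40 to 1.64, limma adjusted p = 0.240).

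CYB5A probes 3 and 4, which start at bases 1874 and 2025 of the transcript, gave smaller differences than the probes that start at bases 280 and 673. They were 0.50 ± 0.22 for probe 3 and 0.48 ± 0.25 for probe 4, with limma adjusted p of 0.394 and 0.421. The fat-1 animals lay above the wild type animals by 0.03 on probe 3, and the groups overlapped on probe 4. With normexp background correction and its offset of 50, the 4 differences were 0.35, 0.49, 0.43 and 0.52 from probe 1 to probe 4, without this split. The probes that start at bases 280 and 673 were the dimmer pair, with intensities of 46.8 to 348 over the animals. Probes 3 and 4 read 480 to 3605. An added offset shrinks log2 differences most for dim probes, and its part in the loss of the split was not tested. The 4 CYB5A probes followed each other over the animals at r of 0.77 to 0.96.

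**Figure D3:**
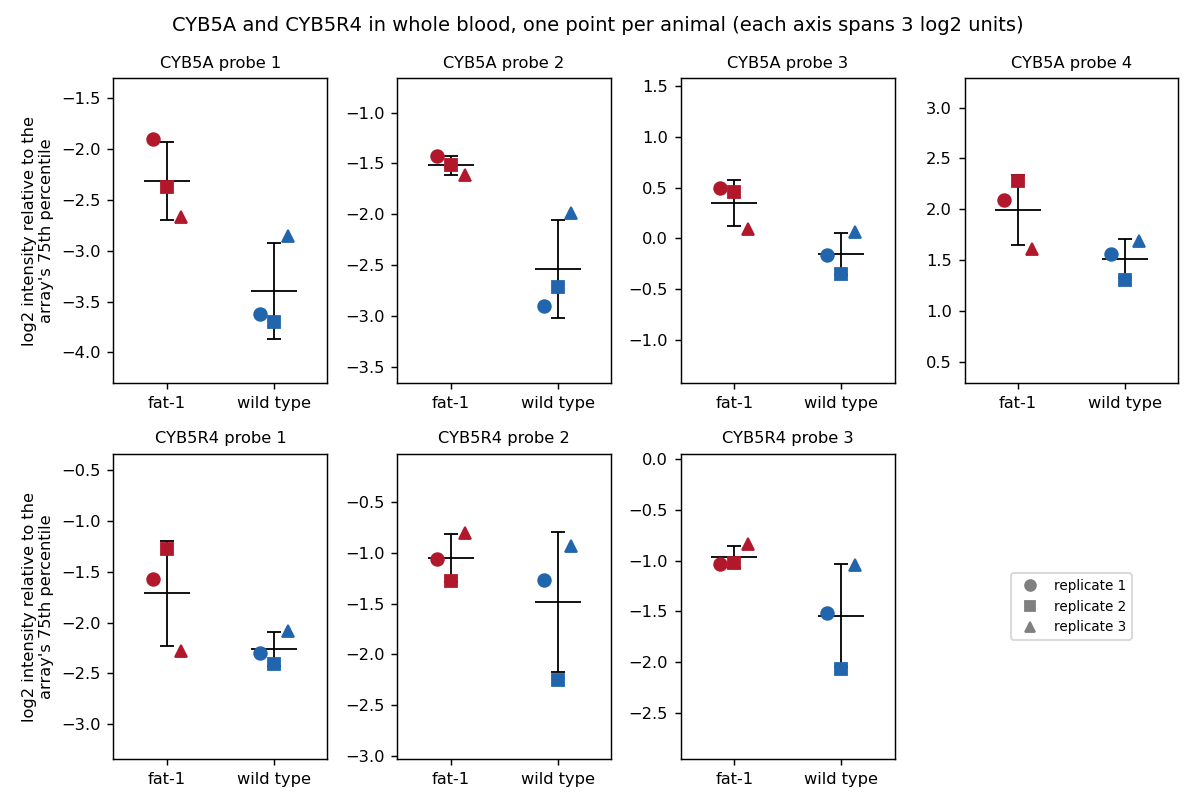
Levels of the 4 CYB5A probes (top) and the 3 CYB5R4 probes (bottom), as log2 intensity relative to the array's 75th percentile, in each fat-1 and wild type animal. Points are animals with the replicate number as shape, horizontal lines are group means and bars are SD, and wild type replicate 3 is the wild type animal nearest the fat-1 group on every CYB5A probe.

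CYB5B, the cytochrome b5 of the outer mitochondrial membrane, gave no called difference, and its probes did not follow each other. CYB5B probe 1 read 2893, 2573 and 5741 in fat-1 blood, against 3586, 3050 and 3842 in wild type blood, and its scaled difference was -0.16 ± 0.23 (limma adjusted p = 0.735). CYB5B probe 3 read 1379, 1132 and 700 in fat-1 blood, against 1231, 1350 and 1015 in wild type blood, with a scaled difference of -0.38 ± 0.42 (limma adjusted p = 0.659). Over the 6 animals the levels of probes 1 and 3 had r of -0.35. Probes 2 and 3 come from an expressed sequence tag and probe 1 from the reference transcript, and probe 2 stayed near background on all 6 arrays.

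The genes whose levels followed CYB5R2 most closely were looked for among the 26821 other probes tested, with CYB5R2 probe 2 as the measure and Pearson r over the 6 animals, which fall into separate groups for CYB5R2. An r above 0.95 was reached by 71 probes, or 0.265%. The 6 named genes with the highest r were NHLRC1, a ubiquitin ligase that acts in glycogen metabolism (0.994), SPATS2L (0.990), CTNS, the lysosomal cystine exporter (0.988), ILDR1, a tight junction protein (0.987), ERLIN2, an endoplasmic reticulum membrane protein (0.986), and FIBIN (0.985). Their own differences were smaller than that of CYB5R2, at 0.45 for NHLRC1, 1.16 for SPATS2L, 0.56 for CTNS, 0.94 for ILDR1, 0.27 for ERLIN2 and 1.44 for FIBIN. Where a gene had a further tested probe, it reached r of 0.99 for SPATS2L and 0.76 for CTNS, and the 4 further ERLIN2 probes reached 0.97, 0.35, 0.06 and 0.52. The 3 genes with the lowest r were GADD45A, a growth arrest gene of the DNA damage response (-0.995), LRRN4CL (-0.991) and LNX2, a ubiquitin ligase (-0.988), with differences of -0.65, -0.27 and -0.81. Within the family, r with CYB5R2 probe 2 was 0.60 to 0.74 for the CYB5A probes over the 6 animals, and -0.84 to -0.55 once each group's mean was removed.

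The few probes beside CYB5R2 on chromosome 15 that could be tested showed no called difference. Within 500000 bases on either side there were 27 other probes, of which 3 were bright enough to be tested. Their differences were 0.12 to 0.42. Limma called 0 of 3, against 0.172% of all probes tested, with 0 of 3 at an unadjusted p under 0.05, against 12.8%. Counts over 3 probes say little of the region, and the other probes in it were not tested. The files give no symbol for these 3, and the window was chosen after the values were seen.

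Other flavoprotein reductases, proteins with a cytochrome b5-like domain and the ferredoxins FDX1 and FDX2 were followed as a list of 16 genes. The list also held CYB5RL, which was not tested. Each gene was followed by its brightest tested probe, and 14 of the 16 were tested. None was called in either direction by limma, 3 had an unadjusted p under 0.05, against 12.8% of all probes tested, and the median difference was -0.08, beside -0.06 over all probes. The median turned above 0 without wild type replicate 2, with quantile scaling and with the authors' value table. MTRR, the reductase that restores methionine synthase, had levels of -0.74, -0.97 and -0.99 in the fat-1 cows, against -1.56, -1.98 and -1.79 in the wild type cows. The difference was 0.87 ± 0.21 (limma adjusted p = 0.195). PGRMC1, a haem-binding membrane protein with a b5-like domain, differed by -0.56 ± 0.20 (limma adjusted p = 0.350), and all fat-1 animals lay below all wild type animals. Its 2 further probes differed by -0.55 and -0.58. NQO1, a quinone reductase, differed by 0.79 ± 0.33 (limma adjusted p = 0.380), with overlapping groups and a probe well above background in 1 of 3 wild type animals. POR, which feeds electrons to microsomal cytochromes P450 and was chosen after its values were seen, differed by -0.28 ± 0.23 with overlapping groups.

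Enzymes that take electrons through cytochrome b5, or that work beside it in fatty acid elongation and sterol synthesis, formed a list of 20 genes, of which 17 were tested. None was called in either direction by limma. SCD5 was near background in all 3 wild type animals and was tested only through the fat-1 group, so the counts that follow are over the other 16 genes. An unadjusted p under 0.05 was found for 3 of 16, all higher in fat-1 blood, against 6.11% of all probes tested. In the same 3 the fat-1 animals lay above all wild type animals, against 6.89% of all probes tested. The median difference was 0.11, beside -0.06 over all probes, and 9 of 16 differences were above 0, against 44.6% of all probes tested. The median of all 17 was also 0.11, and it turned below 0 with normexp and without fat-1 replicate 1 or wild type replicate 3.
MSMO1, a sterol oxidase of cholesterol synthesis, read 4709, 4800 and 6867 in fat-1 blood, against 2576, 1480 and 3771 in wild type blood. Its scaled difference was 0.98 ± 0.25 (limma adjusted p = 0.215), and its 3 further probes differed by 0.96 to 1.06. SCD5, a stearoyl-CoA desaturase, read 34.7 to 48.7 in the fat-1 cows and 12.9 to 25.8 in the wild type cows, with mean levels of -4.33 and -5.19. The fat-1 mean was 1.34-fold above the dimmest signal well above background on each wild type array, or the probe's own where higher. Readings near background can exceed that signal on other probes, so this is not a firm lower bound. The limma adjusted p of 0.253 is for the readings as scanned, and the size of the SCD5 difference was not measured. CYP51A1, the lanosterol demethylase, differed by 0.74 ± 0.23 (limma adjusted p = 0.297), and its other probe by 0.72. A further gene, HSD17B12, a ketoacyl reductase of fatty acid elongation, differed by 0.70 ± 0.24 (limma adjusted p = 0.329), and its 3 further probes by 0.42 to 0.66. The desaturases SCD and FADS2, chosen after their values were seen, differed by 0.38 ± 0.28 and -0.38 ± 0.36 with overlapping groups.

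**Figure D4:**
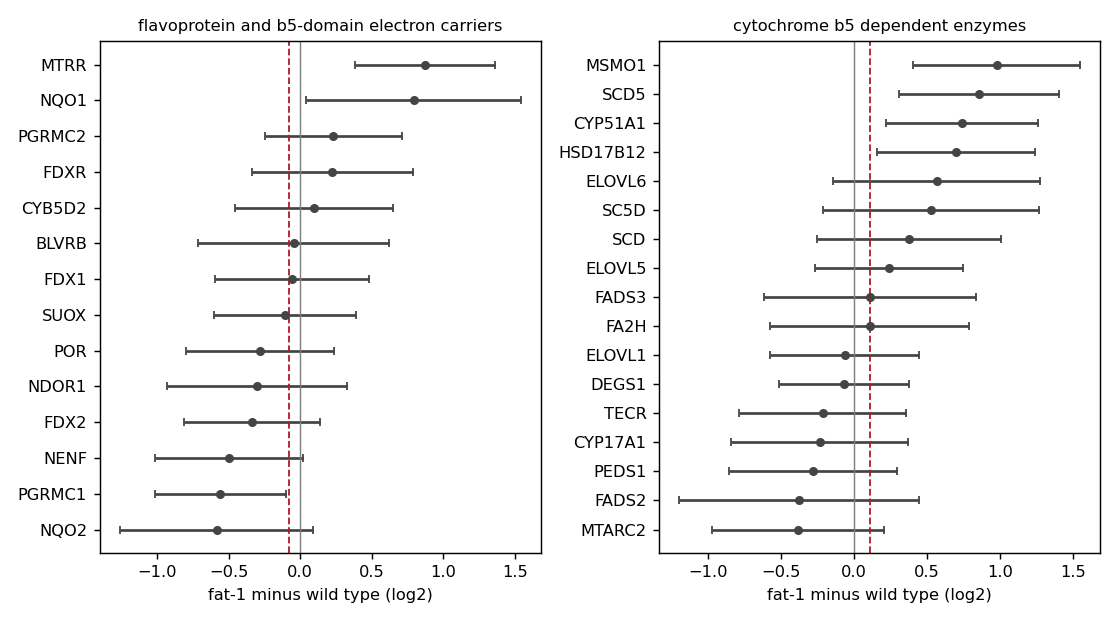
Difference between fat-1 and wild type blood (log2, horizontal axis) for the 14 tested electron carriers (left) and the 17 tested enzymes that depend on cytochrome b5 (right), 1 probe per gene. Bars are 95% intervals of the limma fit, the grey line marks 0 and the dashed red line marks the median of the list, at -0.08 on the left and 0.11 on the right. SCD5 was near background in all wild type animals, so its point is not a measured difference.

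Blood holds several cell types, and a lower share of a cell type and less RNA per cell cannot be told apart in whole blood. Defining markers of blood were bright in both groups, with HBB, S100A8, CD3E, CD79A and PF4 all above the 75th percentile in each group's mean. Of the red cell and reticulocyte markers, 7 of 13 tested were higher in fat-1 blood and 6 were lower, with a median difference of 0.67. SLC4A1, among the lower ones, was near background in all 3 fat-1 animals and was tested only through the wild type group. Over the other 12 markers 7 were higher, with a median difference of 0.80. The summed red cell level was 535, 1046 and 586 times the 75th percentile in fat-1 replicates 1, 2 and 3, against 101, 1248 and 131 in the wild type replicates. Wild type replicate 2 had the highest summed red cell level of the 6 animals.
Neutrophil markers had a median difference of 0.0095 over 6 tested of 10, NK cell markers of -0.29 over 7 of 7, monocyte markers of 0.26 over 8 of 8 and platelet markers of 0.51 over 6 of 7. Platelet markers were higher in fat-1 blood for 6 of 6 tested and monocyte markers for 7 of 8, where 44.6% of all probes tested were higher. Neutrophil markers were higher for 3 of 6 and NK cell markers for 3 of 7. Of 8 eosinophil and basophil markers 1 was tested, and it differed by 0.42. T cell markers were lower in fat-1 blood for 8 of 8 tested, where 55.4% of all probes tested were lower, with a median difference of -0.23, beside -0.06 over all probes. Their summed level, in which the brightest markers weigh most, was 91.6 to 129 in the fat-1 cows and 134 to 208 in the wild type cows. Averaged over the 8 markers as log2 deviations, the groups overlapped, at -0.42 to 0.02 in the fat-1 cows and -0.09 to 0.50 in the wild type cows. All fat-1 animals lay below all wild type animals on 2 of the 8, against 12.7% of all probes tested. B cell markers were lower for 4 of 5 tested, with a summed level of 58.4 to 63.6 in the fat-1 cows and 66.1 to 109 in the wild type cows. As averaged log2 deviations these groups overlapped too, at -0.42 to -0.02 in the fat-1 cows and -0.18 to 0.65 in the wild type cows. All fat-1 animals lay below all wild type animals on 1 of the 5, against the same 12.7% of all probes tested. No marker was called by limma in these lists, and an unadjusted p under 0.05 was found for 8 of the 54 markers tested, or 14.8%, near the 12.8% of all probes tested. With SLC4A1 left out, since it was tested only through the wild type group, it was 7 of 53. The part of these cell types in the CYB5R2 and CYB5A values was not tested.

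**Figure D5:**
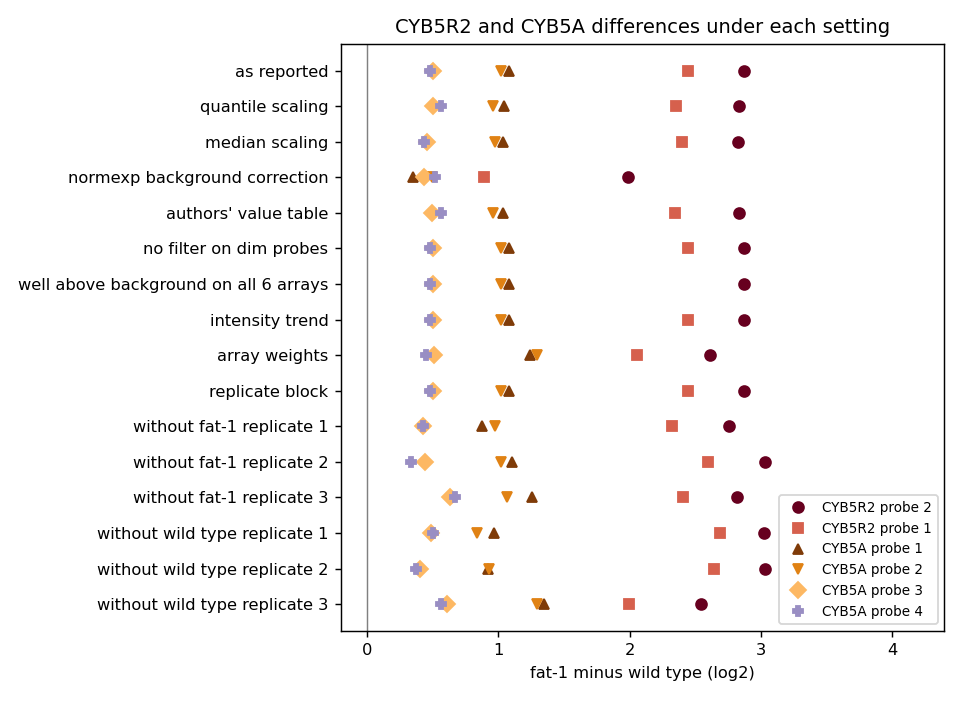
Difference between fat-1 and wild type blood (log2, horizontal axis) for the CYB5R2 and CYB5A probes under the reported setting and each alternative (rows). CYB5R2 probe 1 has no point where a probe had to be well above background on all 6 arrays, all points lie above 0, and the normexp row holds the lowest CYB5R2 values, at 0.89 and 1.99.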

How the data were processed

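Total RNA was labelled with Cy3 and hybridised to 1-colour Agilent arrays, per the labels' protocols. The authors' scanner files hold spot intensity. The submitters' processing notes name Agilent Feature Extraction 10.7.1.1. Per the file headers, the processed intensity is background-subtracted, and arrays are not scaled to each other. Flags for spots well above background, saturated or outlying were used as deposited, with the value 0 or 1. A table of log2 values was deposited too. Its columns each correlated with their own array at r of 0.999 or above and had a median of 6.38, and it served as an alternative, taken as quantile normalized. The file of wild type replicate 2 was kept to 3 significant digits.

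The log2 of processed intensity was scaled by subtracting the 75th percentile of the array, control probes aside. Outlier spots were dropped, which left out 32 probes. A probe was tested if it was well above background in 3 or more of the 6 animals. The fit used limma 3.58.1 (lmFit, eBayes) under R 4.3.3, with group as the only term, all 6 arrays in the fit and Benjamini-Hochberg adjustment over all 26822 probes. The scripts were tested on simulated data. Intervals are those of the fit at 95%, and the number of arrays limits the precision. Genes were named from the files' symbols and accessions through a RefSeq gene table.

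The family's members and the gene lists were chosen with earlier results of these data known. Every family probe is reported. From each list, genes past an adjusted p of 0.05 and the 3 with the smallest unadjusted p are named, and HSD17B12 was named as a further gene after its values were seen. For likeness to CYB5R2, the 6 genes of highest r and the 3 genes of lowest r are named, by 1 probe per gene. Replicate numbers were not taken to pair the animals, since deviations of same-numbered animals from their group means had r of 0.117, 0.185 and 0.0059. Alternatives covered scaling, background, filter, variance model, replicate block and leaving out each animal.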

Additional observations from a re-analysis of the deposited data

How the results depend on the processing

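The CYB5R2 differences stayed above 0 under every alternative tried, and they were lowest with normexp background correction, at 0.89 for probe 1 and 1.99 for probe 2. CYB5R2 was chosen by its difference in these data, so this is a description and no test. Leaving out 1 animal at a time gave 2.00 to 2.69 for probe 1 and 2.54 to 3.03 for probe 2. The count of family probes called was 1 as reported, which the choice of CYB5R2 fixes. It was 0 with quantile scaling, the authors' value table or no filter on dim probes. With median scaling or an intensity trend it was 2, and with array weights 4, and the cause was not tested. Leaving out 1 animal at a time gave 0 to 2. It was 0 without fat-1 replicate 1, 2 or 3 and 2 without wild type replicate 1 or 3. Array weights, which gave wild type replicate 1 a weight of 5.29, added CYB5A probe 1 at 1.24 (limma adjusted p = 0.0332, range over alternatives 0.0332 to 0.584) and CYB5A probe 2 at 1.29 (limma adjusted p = 0.0227, range 0.0227 to 0.524). Replicate numbers were not shown to pair the animals, and with the replicate block 2 family probes and 109 probes in all were called.

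The count of all probes called, 46 as reported, was 16 with quantile scaling, 16 with the authors' value table, 14 with no filter on dim probes, 117 with normexp, 124 with median scaling, 126 with a variance trend on intensity and 1102 with array weights. It was 8 to 57 leaving out 1 animal at a time, with 8, 12 and 13 without fat-1 replicate 1, 2 and 3. The share of calls that were higher was 45.7% as reported, 29.9% with normexp, 57.1% with no filter and 32.8% with probes well above background on all 6 arrays. The median difference of all probes was -0.15 with normexp, -0.16 with no filter and -0.13 without wild type replicate 3. Family probes whose groups did not overlap numbered 6 as reported, 3 with normexp and 6 to 10 leaving out 1 animal at a time, with 10 without wild type replicate 3. Over all probes that count was 5258 as reported and 6530 to 12803 leaving out 1 animal, which needs fewer animals to be separate.

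The median of the cytochrome b5 dependent enzymes, 0.11 as reported, was -0.069 to 0.37 leaving out 1 animal at a time. It lay below 0 without wild type replicate 3, at -0.032 without fat-1 replicate 1 and at -0.032 with normexp. With array weights 1 of them was called. Leaving out genes near background in 1 group, an alternative chosen after seeing the data, gave 0.11. The median of the electron carriers, -0.081 as reported, was 0.051 without wild type replicate 2, 0.0059 with quantile scaling and 0.0071 with the authors' value table. CYB5R3 probes 2, 3 and 4 and CYB5B probe 3 had differences on either side of 0 over the alternatives, and none of them was called in any. Dim signal limits CYB5R2 probe 1, which was not tested where a probe had to be well above background on all 6 arrays. No fit with slide as a block was possible, since each slide held 1 group.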
